A study of Mus musculus with 228 samples.

Results

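The 38 interferon response genes described here are antiviral genes switched on by interferon, taken as the rows of the deposited table whose gene name equals 1 of 38 listed symbols. All 38 names matched a single row each, out of 46331 gene rows. Counts of reads per gene came from 10 tissues of C57BL/6N mice that were 10 weeks old at the start. The mice lived in single cages for 42 days under 1 of 5 light cycles: constant darkness (LD0/24), short days (LD8/16), equal days (LD12/12), long days (LD16/8) and constant light (LD24/0). Antibiotics mice drank water with a cocktail of broad-spectrum antibiotics, chow mice drank sterilized water, and both ate the same irradiated feed, with 24 mice for each diet and cycle. Liver was measured in 6 libraries for each diet and cycle. Hypothalamus and colon epithelium were measured in 3 each. Spleen, thymus, mammary gland, inguinal white adipose tissue and the epithelium of jejunum, ileum and cecum were measured in chow mice only, also in 3 libraries for each cycle. The labels number the libraries of a group without saying which mouse each came from, so a p-value measures the spread between libraries.

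Type I and type III interferons bind receptors whose JAK kinases activate ISGF3, the factor containing STAT2 and Irf9 that switches on interferon-stimulated genes through a promoter element called the ISRE. Irf7 is both a target of that factor and a driver of interferon genes themselves, so it closes a positive loop, and Usp18 and the ISG15 conjugation system tune it. Type II interferon acts through an element called GAS and is the main inducer of the guanylate-binding proteins (Gbp) and the immunity-related GTPases Igtp and Iigp1. Signals from gut microbes are known to keep a low tonic interferon tone in mouse tissues, and antibiotics given in drinking water deplete those microbes.

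Promoters are shown for 6 members that stand for the main roles, because the ISRE is the element through which ISGF3 acts. RefSeq (GRCm38.p6) listed a promoter, taken as 250 bases before to 50 bases after the start, for 27 of the 38 members. The ISRE letters searched were GAAANNGAAA on both strands, and the GAS letters were TTCNNNGAA, which read the same on both strands. In 16 of the 27 members (59.3%) the window held the ISRE letters. The share was 3.44% of all 32851 promoters listed and 3.99% of the 27025 gene symbols, counted with any promoter. For the GAS letters the counts were 6 of 27 members (22.2%), against 8.30% of all promoters and 9.55% of gene symbols. A window with no match says only that these letters were not in it. The windows of Isg15 (chr4:156200769-156201068, minus strand), Ifit1 (chr19:34640639-34640938, plus strand), Oas1a (chr5:120907476-120907775, minus strand), Bst2 (chr8:71537423-71537722, minus strand), Gbp2 (chr3:142620413-142620712, plus strand) and Irf7 (chr7:141266375-141266674, minus strand) read as follows, 5′ to 3′ on the gene's strand, with ISRE matches in capitals.
Isg15: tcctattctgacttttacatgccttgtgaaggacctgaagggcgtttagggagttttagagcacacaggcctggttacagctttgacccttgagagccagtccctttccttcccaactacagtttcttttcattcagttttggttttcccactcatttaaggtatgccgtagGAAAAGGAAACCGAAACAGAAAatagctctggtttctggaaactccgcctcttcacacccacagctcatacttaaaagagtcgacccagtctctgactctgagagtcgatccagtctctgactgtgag
Ifit1: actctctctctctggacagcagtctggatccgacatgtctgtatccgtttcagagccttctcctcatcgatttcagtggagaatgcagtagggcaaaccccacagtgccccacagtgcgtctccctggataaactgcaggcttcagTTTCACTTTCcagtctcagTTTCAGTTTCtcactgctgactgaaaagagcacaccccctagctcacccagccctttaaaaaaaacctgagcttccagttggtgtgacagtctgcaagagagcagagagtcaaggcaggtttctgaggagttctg
Oas1a: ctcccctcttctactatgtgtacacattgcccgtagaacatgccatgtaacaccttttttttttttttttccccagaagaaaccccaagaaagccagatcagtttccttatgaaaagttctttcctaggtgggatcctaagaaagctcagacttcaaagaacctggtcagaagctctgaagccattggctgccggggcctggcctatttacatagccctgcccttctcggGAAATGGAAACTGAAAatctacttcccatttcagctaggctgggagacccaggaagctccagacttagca
Bst2: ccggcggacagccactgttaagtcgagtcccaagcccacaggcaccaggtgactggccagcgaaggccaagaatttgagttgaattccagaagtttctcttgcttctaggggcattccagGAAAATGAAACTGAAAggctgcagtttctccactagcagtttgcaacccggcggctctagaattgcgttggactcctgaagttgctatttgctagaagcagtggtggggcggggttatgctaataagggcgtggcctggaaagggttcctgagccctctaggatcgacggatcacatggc
Gbp2: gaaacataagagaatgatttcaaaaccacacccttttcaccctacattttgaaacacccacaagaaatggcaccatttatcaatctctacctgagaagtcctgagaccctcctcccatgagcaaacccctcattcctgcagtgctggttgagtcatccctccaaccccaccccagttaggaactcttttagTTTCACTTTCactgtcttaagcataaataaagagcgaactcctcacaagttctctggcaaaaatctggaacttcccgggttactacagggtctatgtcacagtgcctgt
Irf7: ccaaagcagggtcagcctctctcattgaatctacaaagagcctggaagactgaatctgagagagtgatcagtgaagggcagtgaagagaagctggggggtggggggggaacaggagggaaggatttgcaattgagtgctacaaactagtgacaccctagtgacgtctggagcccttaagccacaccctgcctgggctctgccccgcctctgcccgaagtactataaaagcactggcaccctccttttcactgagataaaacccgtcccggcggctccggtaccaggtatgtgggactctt

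Isg15 held 3 overlapping matches, Oas1a and Bst2 held 2 overlapping matches each, Ifit1 held 2 separate ones and Gbp2 held 1. Irf7 held none in this window. Of the members with a listed promoter, the letters were present in 9 of the 16 that fell in antibiotics liver, in 6 of the 10 that were not called there, and in Gbp2, the only member that rose there.

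In all, 224 of 228 libraries entered the comparisons, with totals of 7200822 to 170140840 counts. An antibiotics liver (LD0/24 replicate 1) held 0 counts on whole chromosomes and 3 cecum columns held identical values under different cycles, so these 4 were not used. In liver, 5 chow libraries (LD0/24 replicates 1 and 4, LD8/16 replicate 3, LD12/12 replicate 2 and LD24/0 replicate 5) gave 29.3% to 60.8% of their counts to mitochondrial genes, against a liver median of 5.53%. In colon, antibiotics LD8/16 replicate 1 had 8919740 counts, 4225 detected genes and 26 members at 0. Counts of members called by diet in liver and colon are given with and without these libraries. Mitochondrial genes took a median of 49.99% of counts in chow colon (24.7% to 67.8%) and 41.7% in antibiotics colon (up to 60.9%). Colon libraries were not set apart for this share. The highest share in jejunum was 84.5%. The tissues carried their own markers: median Alb was 199984 CPM (counts per 1000000 scaled counts) in liver, Avp was 242 CPM in hypothalamus and Rag1 was 1056 CPM in thymus. Epcam, an epithelial marker, was at a median of 363 CPM in colon against 3020 CPM in ileum. Mammary gland libraries had a median of 85.3% mitochondrial counts and 9361 detected genes. Milk protein genes led their other counts, with Wap at a median of 15120 CPM.

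In antibiotics liver the module was lower than in chow liver. A gene is said to have risen, fallen or been called where its adjusted p was under 0.05 in edgeR's quasi-likelihood test, with Benjamini-Hochberg adjustment over all genes tested in the tissue. Of 38 members 21 fell, which is 55.3%, against 18.4% of the 19234 genes tested, and 1 rose, which is 2.63%, against 14.8% of genes tested. The median log2 fold change was -0.34 over the members and -0.00 over all genes tested. Irf7, Oasl1 and Oasl2 had the smallest adjusted p. The mean log2 CPM over the 38 members was 3.40 ± 0.27 in antibiotics livers and 3.73 ± 0.23 in chow livers (SD, n = 29 and 30). A bulk library cannot tell fewer cells of a type from less RNA per cell, here or in the other tissues.

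**Figure D1:**
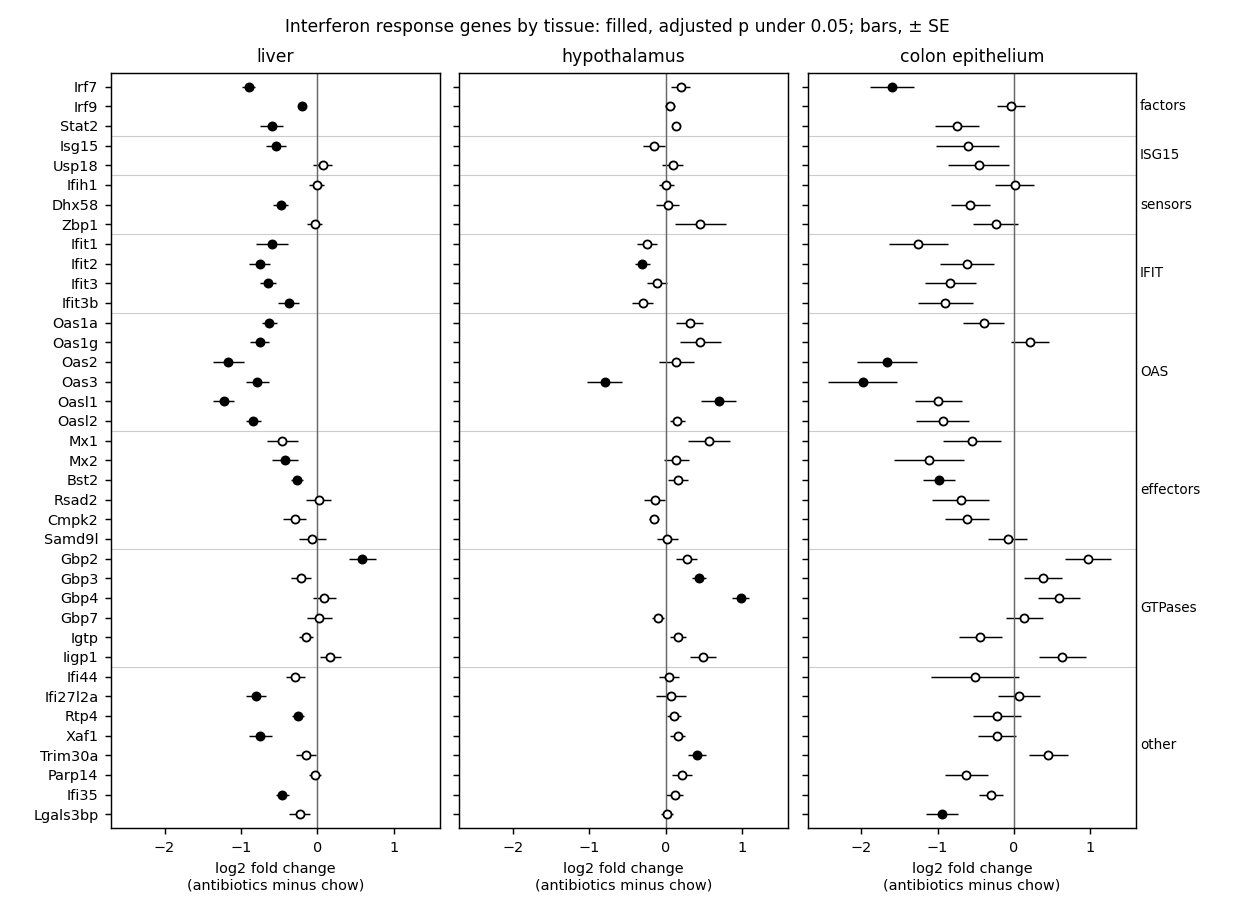
Log2 fold change of each of the 38 members, antibiotics minus chow, with its standard error, in liver, hypothalamus and colon epithelium. Filled points passed an adjusted p of 0.05: 21 lower and 1 higher in liver, 2 lower and 4 higher in hypothalamus, and 5 lower in colon.

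All 3 transcription factors fell in antibiotics liver. Irf7 ranged from 26.0 to 68.0 CPM in antibiotics livers, with a median of 34.6, and from 43.3 to 120 CPM in chow livers, with a median of 61.6. Its log2 fold change was -0.90 ± 0.09 (SE, adjusted p = 6.16e-12). The groups overlapped, but 24 of 29 antibiotics livers were below the lowest chow liver, and 29 of 29 were below the chow mean of their own light cycle. Stat2, a subunit of ISGF3, ranged from 25.2 to 46.6 CPM in antibiotics livers (median 34.9) and from 32.6 to 197 CPM in chow livers (median 39.1). Its log2 fold change was -0.60 ± 0.15 (adjusted p = 0.00166). The high values of Stat2 sat in the 5 chow libraries of high mitochondrial share, at 76.3 to 197 CPM, while the other 25 chow livers lay between 32.6 and 46.1 CPM. Without those 5 libraries Stat2 was not called, at -0.12 ± 0.06 (adjusted p = 0.0994). Irf9, the DNA-binding subunit of ISGF3, averaged 26.1 ± 3.96 CPM in antibiotics livers and 30.1 ± 4.00 CPM in chow livers, a log2 fold change of -0.20 ± 0.06 (adjusted p = 0.00395).

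Isg15, the ubiquitin-like protein that is conjugated to other proteins during an interferon response, ranged from 5.82 to 29.3 CPM in antibiotics livers (median 11.9) and from 11.3 to 43.7 CPM in chow livers (median 17.9). It fell by 0.54 ± 0.13 on the log2 scale (adjusted p = 0.000733), and 11 antibiotics livers were below every chow liver. Usp18, which removes Isg15 from proteins and dampens receptor signalling, averaged 12.8 ± 4.28 CPM in antibiotics livers and 12.3 ± 3.88 CPM in chow livers (log2 fold change 0.07, adjusted p = 0.707). Among the 3 sensors of viral nucleic acid, Dhx58 fell, with 9.01 ± 2.49 CPM in antibiotics livers and 12.6 ± 2.94 CPM in chow livers (log2 fold change -0.48, adjusted p = 5.33e-05). The RNA sensor Ifih1 and the Z-form nucleic acid sensor Zbp1 were not called, at -0.01 and -0.04.

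All 4 IFIT genes, whose proteins bind foreign RNA and block its translation, fell. Ifit3 ranged from 9.96 to 40.5 CPM in antibiotics livers (median 16.9) and from 18.2 to 44.9 CPM in chow livers (median 28.8), with a log2 fold change of -0.65 ± 0.11 (adjusted p = 5.77e-06). The 2 groups overlapped, with 16 antibiotics livers below the lowest chow liver. Ifit1 ranged from 5.62 to 29.2 CPM in antibiotics livers (median 10.4) and from 4.41 to 54.7 CPM in chow livers (median 14.5), with a log2 fold change of -0.60 ± 0.21 (adjusted p = 0.0222). Its ranges overlapped almost fully, and without the 5 chow libraries of high mitochondrial share it was not called (-0.08, adjusted p = 0.736). Ifit2 fell by 0.76 and Ifit3b by 0.38 (adjusted p = 3.04e-05 and 0.0296). The call of Ifit3b was lost in 7 of 17 alternatives, with an adjusted p of up to 0.114. Ifit3 and Ifit3b are close copies, as are Oas1a and Oas1g, so their estimated counts may share reads.

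All 6 OAS genes fell. Their proteins sense double-stranded RNA and activate RNase L, except that the mouse OAS-like protein Oasl1 is known instead as a repressor of Irf7 translation. Oasl1 ranged from 4.96 to 20.5 CPM in antibiotics livers (median 9.19) and from 6.82 to 47.3 CPM in chow livers (median 22.5), a log2 fold change of -1.23 ± 0.14 (adjusted p = 4.92e-10). Although its ranges overlapped, 20 of 30 chow livers were above the highest antibiotics liver. Oasl2 ranged from 2.85 to 7.67 CPM in antibiotics livers (median 3.78) and from 4.09 to 13.9 CPM in chow livers (median 7.54), a log2 fold change of -0.84 ± 0.10 (adjusted p = 4.23e-09). For Oasl2, 17 antibiotics livers were below every chow liver. Oas1a ranged from 3.61 to 9.21 CPM in antibiotics livers (median 5.19) and from 4.97 to 18.4 CPM in chow livers (median 8.21), a log2 fold change of -0.63 ± 0.10 (adjusted p = 6.68e-07). Oas1g ranged from 1.29 to 3.50 CPM in antibiotics livers (median 2.08) and from 1.94 to 8.07 CPM in chow livers (median 3.43), a log2 fold change of -0.76 ± 0.12 (adjusted p = 1.7e-06). Both Oas1 genes overlapped between diets, and 9 and 12 chow livers were above every antibiotics liver. Oas2 ranged from 1.09 to 2.33 CPM in antibiotics livers (median 1.61) and from 1.30 to 15.1 CPM in chow livers (median 2.32), a log2 fold change of -1.16 ± 0.21 (adjusted p = 1.25e-05). Its highest chow values, 9.38 to 15.1 CPM, were those of the 5 libraries of high mitochondrial share. Without them the log2 fold change was -0.49 ± 0.09. Oas3 averaged 1.43 ± 0.56 CPM in antibiotics livers and 2.48 ± 1.26 CPM in chow livers (log2 fold change -0.79, adjusted p = 4.81e-05).

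**Figure D2:**
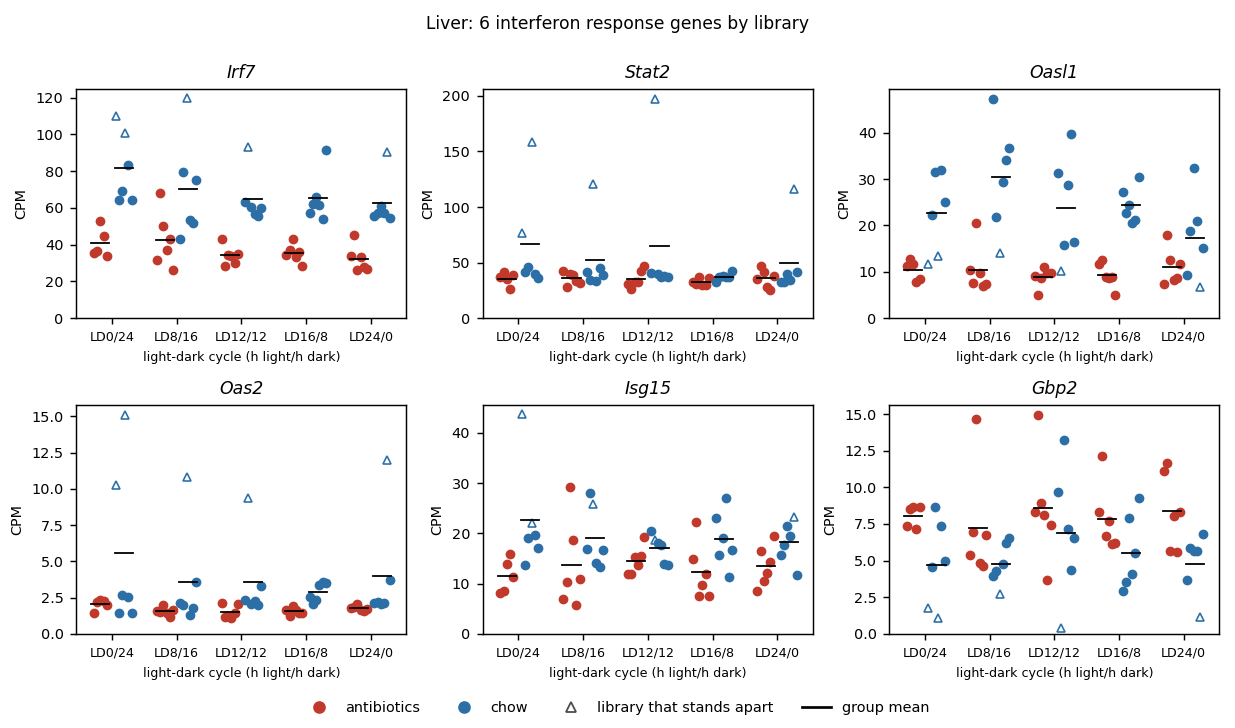
CPM of Irf7, Stat2, Oasl1, Oas2, Isg15 and Gbp2 in each liver library, by diet and light cycle, with triangles for the 5 chow libraries of high mitochondrial share. Antibiotics livers sit lower in Irf7 and Oasl1 at every cycle, and the chow libraries drawn as triangles carry the highest Stat2 (76.3 to 197 CPM) and Oas2 (9.38 to 15.1 CPM) and the lowest Gbp2 (0.404 to 2.69 CPM).

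Of the 6 direct antiviral effectors 2 fell. Bst2, which tethers budding virus particles to the cell surface, averaged 172 ± 33.1 CPM in antibiotics livers and 206 ± 47.4 CPM in chow livers (log2 fold change -0.27 ± 0.08, adjusted p = 0.0082). Its adjusted p was 0.0754 without the livers numbered 1 and 0.0611 without those numbered 6. The dynamin-like GTPase Mx2 passed the threshold narrowly at -0.43 ± 0.17 (adjusted p = 0.0471), and without the 5 chow libraries of high mitochondrial share it was at 0.047 (adjusted p = 0.749). Its relative Mx1 was not called (-0.46, adjusted p = 0.0705), nor were Rsad2, Cmpk2 and Samd9l.

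Of the 6 interferon-inducible GTPases 0 fell in antibiotics liver, by edgeR as by DESeq2 and limma-voom, and 0 had a lower value at an unadjusted p under 0.05. Over all genes tested edgeR called 18.4% lower and 14.8% higher, and 6 genes are too few to set their counts apart from these shares. Gbp2, a guanylate-binding protein that attacks the vacuoles of intracellular pathogens, rose. Gbp2 ranged from 3.67 to 14.9 CPM in antibiotics livers (median 7.67) and from 0.404 to 13.2 CPM in chow livers (median 5.24), a log2 fold change of 0.59 ± 0.18 (adjusted p = 0.00848, and 0.0542 without the livers numbered 2). The ranges overlapped, with 8 chow livers below every antibiotics liver. Gbp3, Gbp4, Gbp7, Igtp and Iigp1 were not called, at -0.22 to 0.17. In the 5 chow libraries of high mitochondrial share Gbp2 was low, while Gbp7 was high, at 29.2 to 45.2 CPM against 5.31 to 25.9 CPM in the other chow livers. Without these libraries Gbp2, Gbp4, Gbp7 and Iigp1 all rose, by 0.41, 0.34, 0.37 and 0.43.

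Among the 8 remaining members 4 fell. Ifi27l2a, an interferon-induced mitochondrial protein gene, ranged from 5.37 to 14.9 CPM in antibiotics livers (median 8.51) and from 8.37 to 33.9 CPM in chow livers (median 11.7), a log2 fold change of -0.81 ± 0.13 (adjusted p = 1.78e-06). It overlapped between diets, with 10 chow livers above every antibiotics liver. Ifi35 fell by 0.46, Xaf1, a pro-apoptotic gene, by 0.75, and Rtp4 by 0.26 (adjusted p = 1.32e-05, 9.12e-05 and 0.00904). Ifi44, Trim30a, Parp14 and Lgals3bp were not called, at -0.29 to -0.03.

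Leaving out the 5 chow livers of high mitochondrial share gave 19 members that fell and 5 that rose, and 18 of the 21 fallers were shared. Over all genes that fit called 17.4% lower and 20.7% higher. Stat2, Ifit1 and Mx2 were lost, and Samd9l (0.46), Gbp4, Gbp7 and Iigp1 were gained as higher and Lgals3bp (-0.41) as lower. Irf7 was at -0.75 ± 0.07 and Oasl1 at -1.36 ± 0.12 in that fit. Xaf1, Ifi35 and Ifi27l2a were closer to 0 there than with all libraries, at -0.38, -0.29 and -0.54, as were Oas1g (-0.55) and Isg15 (-0.41). The other 10 shared fallers, apart from Oas2, lay between -0.85 and -0.22.

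Markers of other cells also differed by diet in liver, and their part in these results was not tested. Over all genes tested 18.4% fell and 14.8% rose. Of 10 neutrophil genes listed, 9 were tested and all 9 fell, with S100a9 at 0.703 ± 0.410 CPM in antibiotics livers and 9.44 ± 29.5 CPM in chow livers. Summed over the list, neutrophil genes ranged from 0.460 to 9.23 CPM in antibiotics livers and from 3.18 to 577 CPM in chow livers. All 7 red blood cell genes fell, and their sum ranged from 284 to 1006 CPM in antibiotics livers and from 481 to 4260 CPM in chow livers. Of 12 macrophage and Kupffer cell genes 4 fell (Cd68, Cd163, Clec4f and Csf1r), with sums of 249 to 846 CPM in antibiotics livers (median 519) and 268 to 1843 CPM in chow livers (median 540.03). In the 5 chow livers of high mitochondrial share that sum was 268 to 454 CPM. Of 6 monocyte genes 3 fell. In the other direction, 6 of 12 T cell genes rose, with sums of 3.86 to 14.4 CPM in antibiotics livers and 2.35 to 11.4 CPM in chow livers. Among plasmacytoid dendritic cell genes, which mark the main makers of type I interferon, 3 of 7 rose and 1 fell, and the markers Siglech, Klk1 and Cox6a2 were all under 0.4 CPM on average in both diets. The 7 genes summed to 8.57 to 13.9 CPM in antibiotics livers, 17.7 to 39.8 CPM in the 5 chow livers of high mitochondrial share and 3.36 to 15.5 CPM in the other 25 chow livers. Summed dendritic cell genes were likewise 5.44 to 10.4, 11.4 to 17.4 and 4.57 to 10.8 CPM in these groups. No B cell or NK cell gene was called, 1 of 8 endothelial genes fell, and the dendritic cell list had 1 up and 1 down. The microglia list, which holds genes that macrophages also use, had 2 up and 3 down.

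Other genes of the pathway were also measured in liver. Over all genes tested 18.4% fell and 14.8% rose. Calls in these lists are given only with the 5 chow livers of high mitochondrial share included. LD12/12 replicate 2, 1 of these, was the highest library for Irf2, Ikbke, Il10rb and B2m. LD16/8 replicate 6, which is not among them, was the highest for Irf8 and Unc93b1. Of 59 further interferon-stimulated genes 17 fell and 3 rose (Ifi47, Tgtp1 and Tgtp2), with a median of -0.11. The smallest adjusted p values were those of the ubiquitin ligase Dtx3l (-0.56 ± 0.07), Oas1c (-0.86 ± 0.11), Ly6e (-0.74 ± 0.13) and the exonuclease gene Isg20 (-0.56 ± 0.10). Of 15 class I antigen presentation genes 5 fell, led by the proteasome genes Psme1 (-0.38) and Psmb9 (-0.50) and by B2m (-0.35), and the peptide-trimming gene Erap1 rose (0.35). Among 6 interferon receptor genes Il10rb, Ifnlr1 and Ifnar2 fell, by 0.41, 1.00 and 0.23, and Ifnar1 rose by 0.14. Ifnlr1 was barely detected, at a mean of 0.110 CPM in antibiotics livers and 0.239 CPM in chow livers. Of 12 signalling genes 6 fell, among them the transcription factors Irf1, Irf2 and Irf8 (-0.22, -0.33 and -0.30), and the kinase gene Jak2 rose (0.34). Of 16 genes of the induction pathway 5 fell, led by Unc93b1 (-0.36), which carries endosomal Toll-like receptors, and the kinase gene Ikbke (-0.55), with Irf3 at -0.23, and Tbk1 rose by 0.18. Interferon genes themselves were barely detected: 1 of 21 was abundant enough to test in liver, it was not called, and 16 were at 0 in every liver library.

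In hypothalamus 4 members rose with antibiotics (10.5%, against 5.80% of 24557 genes tested) and 2 fell (5.26%, against 8.40%). The median log2 fold change was 0.13 over the members and 0.02 over all genes tested. Gbp4, a guanylate-binding protein gene, had the smallest adjusted p. It ranged from 2.95 to 5.61 CPM in antibiotics hypothalamus (median 4.19) and from 0.832 to 3.16 CPM in chow hypothalamus (median 2.05), a log2 fold change of 0.98 ± 0.11 (adjusted p = 1.15e-05). The groups nearly separated: 13 of 15 antibiotics libraries were above the highest chow library.

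Gbp3 ranged from 6.01 to 10.4 CPM in antibiotics hypothalamus (median 8.25) and from 3.43 to 9.43 CPM in chow hypothalamus (median 6.12), and rose by 0.44 ± 0.09 (adjusted p = 0.00266). Trim30a, a regulator of Toll-like receptor signalling, ranged from 2.89 to 5.19 CPM in antibiotics hypothalamus (median 3.60) and from 0.935 to 4.93 CPM in chow hypothalamus (median 2.79), and rose by 0.41 ± 0.12 (adjusted p = 0.0235). Both overlapped between diets. Oasl1 rose by 0.69 ± 0.23 (adjusted p = 0.045) at levels of 0.217 to 0.591 CPM in antibiotics libraries (median 0.420) and 0 to 0.501 CPM in chow libraries (median 0.208). Oas3 fell by 0.80 ± 0.23 (adjusted p = 0.0216) at levels of 0 to 0.598 CPM in antibiotics libraries (median 0.237) and 0.204 to 0.590 CPM in chow libraries (median 0.409). Both OAS calls therefore rest on under 1 CPM. Ifit2 fell by 0.31 ± 0.10 (adjusted p = 0.041), with 11.2 to 18.3 CPM in antibiotics libraries (median 13.999) and 11.2 to 29.9 CPM in chow libraries (median 17.9), and 7 chow libraries were above every antibiotics library.

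The other named members overlapped and were not called in hypothalamus. Iigp1 ranged from 1.94 to 7.23 CPM in antibiotics libraries (median 3.00) and from 0.860 to 4.78 CPM in chow libraries (median 2.39; log2 fold change 0.49, adjusted p = 0.0581). Stat2 ranged from 15.4 to 22.9 CPM in antibiotics libraries (median 18.3) and from 14.4 to 19.3 CPM in chow libraries (median 17.1; 0.13, adjusted p = 0.0816). Irf7 ranged from 3.22 to 7.49 CPM in antibiotics libraries (median 3.81) and from 1.95 to 5.63 CPM in chow libraries (median 3.49; 0.20, adjusted p = 0.293). The medians of these 3 were higher with antibiotics, within overlapping ranges. Isg15 was at -0.15, Ifit1 at -0.24 and Oas2 at 0.14 (adjusted p = 0.489, 0.231 and 0.722). Isg15 ranged from 1.64 to 5.10 CPM in antibiotics libraries (median 3.65) and from 2.27 to 7.32 CPM in chow libraries (median 3.49). Ifit1 ranged from 3.47 to 7.90 CPM in antibiotics libraries (median 5.02) and from 2.71 to 12.99 CPM in chow libraries (median 6.42), and Oas2 from 0.549 to 2.36 CPM in antibiotics libraries (median 0.919) and from 0.367 to 2.57 CPM in chow libraries (median 0.706). Without the libraries numbered 2, 1 member rose and 0 fell. Over all 24892 genes tested in that fit only 2 rose and 17 fell, against 1425 and 2064 with all libraries. Gbp4 alone of the 6 passed in all 42 alternatives run, and Oasl1 and Ifit2 did not pass in 29 and 30 of them.

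Of the 59 further interferon-stimulated genes 2 rose and 4 fell in hypothalamus. These counts were not above the shares over all genes tested, 5.80% higher and 8.40% lower. Among those called, Gbp9 was at 0.56, Dtx3l at -0.59, Herc6 at -0.37 and Adar at -0.21. Of the class I genes the heavy chain genes H2-K1 (0.47) and H2-D1 (0.26) rose and the chaperone genes Pdia3 (-0.36) and Calr (-0.35) fell. Of the signalling genes Tyk2 rose (0.25) and Jak1, Pias1 and Irf2 fell (-0.29, -0.24 and -0.21), of the induction genes Unc93b1 rose (0.26), and no receptor gene was called. No microglia, macrophage, B cell or NK cell gene was called. Neutrophil genes were lower here too, 7 of 8 tested, with sums of 0.378 to 5.91 CPM in antibiotics libraries and 3.42 to 23.9 CPM in chow libraries, as were 5 of 7 red blood cell genes, with sums of 558 to 2089 CPM and 759 to 10097 CPM. Of 8 endothelial genes 3 rose and 1 fell, 1 dendritic cell gene rose, and Chil3 of the monocyte list, Trbc2 of the T cell list and both Pacsin1 and Tcf4 of the plasmacytoid list, which neurons also express, fell. The part of these cells in the result was not tested.

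In colon epithelium 5 members fell with antibiotics (13.2%, against 3.12% of 23717 genes tested) and none rose, against 2.26% of genes tested. DESeq2 and limma-voom also called 0 higher, and 3 members were higher at an unadjusted p under 0.05. The median log2 fold change was -0.53 over the members and 0.01 over all genes tested, and 29 of 38 members were below 0. Irf7 had the smallest adjusted p here as in liver. It ranged from 32.6 to 526 CPM in antibiotics colon (median 111) and from 29.9 to 803 CPM in chow colon (median 486), a log2 fold change of -1.60 ± 0.29 (adjusted p = 0.000864). The ranges overlapped, and 6 of 15 chow libraries were above every antibiotics library.

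Bst2 ranged from 7.01 to 35.6 CPM in antibiotics colon (median 22.9) and from 13.7 to 95.4 CPM in chow colon (median 44.4), and fell by 0.98 ± 0.21 (adjusted p = 0.00457). Its separation was the clearest of the 5, with 10 chow libraries above every antibiotics library. Lgals3bp, a secreted galectin-binding glycoprotein gene, ranged from 11.9 to 84.7 CPM in antibiotics colon (median 24.2) and from 25.6 to 119 CPM in chow colon (median 62.0), and fell by 0.95 ± 0.21 (adjusted p = 0.00502). Oas3 ranged from 0 to 50.3 CPM in antibiotics colon (median 6.79) and from 1.29 to 91.0 CPM in chow colon (median 29.5), and fell by 1.98 ± 0.45 (adjusted p = 0.00733). Oas2 ranged from 0 to 28.1 CPM in antibiotics colon (median 5.48) and from 3.03 to 148 CPM in chow colon (median 18.3), and fell by 1.66 ± 0.39 (adjusted p = 0.00938). These 3 overlapped between diets, with 2, 2 and 3 chow libraries above every antibiotics library.

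Another 3 members missed the threshold narrowly. Oasl1 ranged from 0 to 64.0 CPM in antibiotics colon (median 11.7) and from 1.75 to 73.6 CPM in chow colon (median 27.9; -0.99 ± 0.31, adjusted p = 0.0545). Ifit1 ranged from 8.62 to 160 CPM in antibiotics colon (median 22.2) and from 4.76 to 216 CPM in chow colon (median 72.3; -1.25 ± 0.39, adjusted p = 0.0565). Gbp2 ranged from 0 to 38.2 CPM in antibiotics colon (median 15.5) and from 3.42 to 19.1 CPM in chow colon (median 7.60; 0.97 ± 0.30, adjusted p = 0.0558), with 4 antibiotics libraries above every chow library. All 3 overlapped between diets. Stat2 and Isg15 did not pass, at -0.75 and -0.61 (adjusted p = 0.154 and 0.52). Stat2 ranged from 0 to 65.7 CPM in antibiotics colon (median 21.0) and from 17.9 to 102 CPM in chow colon (median 40.3), and Isg15 from 5.70 to 121 CPM in antibiotics colon (median 33.9) and from 6.04 to 196 CPM in chow colon (median 68.9). Without the shallow antibiotics library, LD8/16 replicate 1, 7 members fell, the same 5 with Ifit1 and Oasl1 added, and Gbp2 rose by 1.06 ± 0.25 (adjusted p = 0.00865), while 3.97% of all genes were called lower and 3.17% higher. Irf7 was then at -1.86 ± 0.27 (adjusted p = 9.19e-05), with Bst2 at -0.93, Lgals3bp at -0.90, Oas3 at -1.93 and Oas2 at -1.60. Leaving out any other single library lost none of the 5 calls. Without the 10 libraries numbered 2 only Oas3 passed, and without the 10 numbered 3 only Irf7 did.

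**Figure D3:**
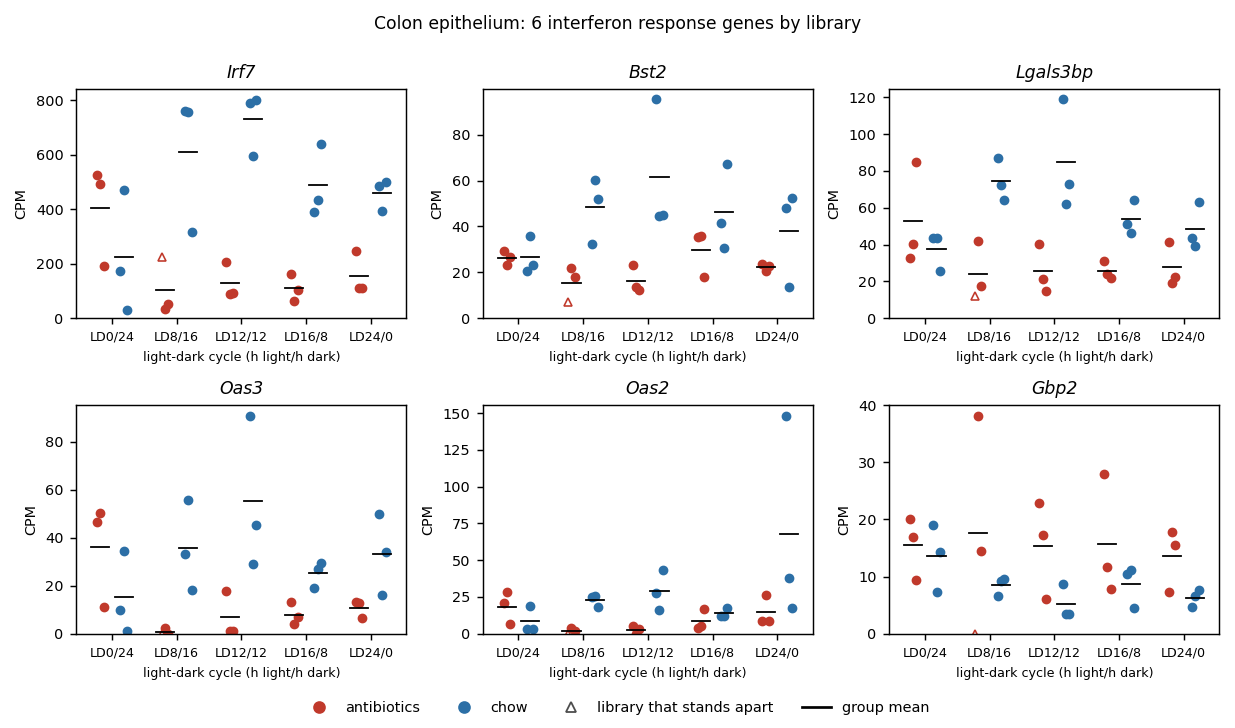
CPM of Irf7, Bst2, Lgals3bp, Oas3, Oas2 and Gbp2 in each colon epithelium library, by diet and light cycle, with a triangle for antibiotics LD8/16 replicate 1. Irf7 is lower with antibiotics at the other 4 cycles but averages 403 CPM in antibiotics colon and 224 CPM in chow colon under LD0/24.

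In colon the order of the diet means was not the same at every cycle, although no difference among cycles passed. Under LD0/24, Irf7 was at 526, 493 and 192 CPM in antibiotics colon and 172, 471 and 29.9 CPM in chow colon, so the groups overlapped. At LD12/12 it was at 206, 88.3 and 92.3 CPM in antibiotics colon and 792, 596 and 803 CPM in chow colon, with no overlap. Group means were 103 ± 105 CPM with antibiotics and 611 ± 255 CPM on chow at LD8/16, 110 ± 50.6 and 488 ± 134 CPM at LD16/8, and 155 ± 77.5 and 460 ± 59.1 CPM at LD24/0. Oas3, Oas2 and Oasl1 also averaged more with antibiotics under LD0/24: 36.0 CPM with antibiotics and 15.3 CPM on chow for Oas3, 18.5 and 8.49 CPM for Oas2, and 48.4 and 17.6 CPM for Oasl1. In the test of diet by cycle 11 of 38 members had an unadjusted p under 0.05 (28.9%, against 6.41% of all genes tested), and none passed after adjustment in edgeR, DESeq2 or limma-voom, nor did any gene in this tissue in edgeR (0.00% called). Oasl1 had the smallest p (0.000684, adjusted p = 0.653). The shallow antibiotics library, LD8/16 replicate 1, is in this test, and the count of 11 is given with it only.

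Immune cell markers varied widely among colon libraries. Summed B cell markers ranged from 3.29 to 398 CPM in antibiotics colon and from 1.46 to 136 CPM in chow colon, and 2 of 8 rose (Cd79b and Pax5). The neutrophil surface gene Ly6g rose, with 27.5 ± 33.3 CPM in antibiotics colon and 0.221 ± 0.476 CPM in chow colon. It was the 1 gene called of 9 tested in the neutrophil list, whose median log2 fold change was -0.57 with 5 of 9 below 0. The list summed to 2.16 to 454 CPM in antibiotics colon (median 24.1) and 0.196 to 6.93 CPM in chow colon (median 1.83). Of the other lists, 2 microglia genes and 1 dendritic cell gene rose, and 1 NK cell, 1 plasmacytoid dendritic cell and 1 red blood cell gene fell. No macrophage, monocyte, T cell or endothelial gene was called. Their part in the member results was not tested. Of the 59 further interferon-stimulated genes Phf11b (-1.30 ± 0.33) and Pml (-0.86 ± 0.25) fell. That count is near the share over all genes tested, of which 3.12% fell and 2.26% rose. No class I, receptor, signalling, induction or ligand gene was called in colon.

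Of the 5 members that fell in colon 4 also fell in liver, which is 4 of the 21 that fell there. Over the 17413 genes tested in all 3 tissues, 0.787% fell in both, which is 26.6% of those that fell in colon and 4.31% of those that fell in liver. Oas3 was the single member called in all 3 tissues, against 0.276% of these genes, and 12 of 38 members were called in none, against 53.5%. The difference between tissues was tested in a joint fit, which takes a single spread per gene over the 3 tissues. For Irf7, Oas3 and Bst2 its error for liver against colon was below the error of colon alone. Calls that involve colon may therefore be overstated. Between liver and colon the diet effect was higher, that is less negative, in liver for 4 members (6.58% of all genes were called that way): Irf7 (difference 0.71 ± 0.23, adjusted p = 0.0217), Oas3 (1.19 ± 0.36), Bst2 (0.72 ± 0.18) and Lgals3bp (0.71 ± 0.22). It was lower in liver for Oas1g (-0.95 ± 0.24) and Ifi27l2a (-0.85 ± 0.26), against 6.81% of all genes.

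Against hypothalamus, 10 members had a lower diet effect in liver by edgeR (3.67% of all genes were called that way), and fewer did by limma-voom. None had a higher one by edgeR (2.13% of all genes) or by limma-voom, nor was any higher at an unadjusted p under 0.05. Oasl1 differed furthest, at -1.95 ± 0.34 (adjusted p = 4.84e-05), followed by Oas2 (-1.31 ± 0.39), Oas1g (-1.23 ± 0.30) and Irf7 (-1.10 ± 0.23). The others were Oasl2, Oas1a, Xaf1, Gbp4, Ifi27l2a and Ifi35, at -1.0005 to -0.58. Between colon and hypothalamus 8 members had a lower diet effect in colon by edgeR (4.75% of all genes). None had a higher one by edgeR (2.65% of all genes) or by limma-voom, nor was any higher at an unadjusted p under 0.05. Irf7 was at -1.81 ± 0.27 (adjusted p = 2.76e-07), Oas2 at -1.82 ± 0.44, Oasl1 at -1.71 ± 0.38 and Bst2 at -1.16 ± 0.21, with Oasl2, Lgals3bp, Stat2 and Parp14 between -1.10 and -0.85.

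No member passed edgeR's test among the 5 light cycles in any of the 3 antibiotics tissues or the 10 chow tissues. DESeq2 and limma-voom also called 0 members in these tests, except in antibiotics colon and in chow inguinal fat, jejunum, cecum, spleen and mammary gland. In liver the test called 0.265% of all genes with antibiotics and 0.665% on chow, and the diet by cycle test called 0.00520%. In hypothalamus these were 0.0570%, 0.00% and 0.00%, and in colon 0.186% with antibiotics and 0.00% on chow. In the other chow tissues the test called 0.268% of genes in inguinal fat, 0.00% in ileum, 0.00974% in jejunum, 0.00978% in cecum, 2.00% in spleen, 0.0502% in mammary gland and 0.00% in thymus. In antibiotics liver 1 of 38 members had an unadjusted p under 0.05 (2.63%, against 2.84% of all genes). The count was also 1 in chow liver (against 11.0%) and 0 in liver's diet by cycle test (against 6.17%). The mean log2 CPM of the module in chow liver lay between 3.71 and 3.74 at all 5 cycles.

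In hypothalamus 3 members had an unadjusted p under 0.05 with antibiotics (7.89%, against 4.21% of all genes), 8 on chow (21.1%, against 4.65%) and 1 in the diet by cycle test (against 4.82%). Oas1g had the smallest p on chow (0.00300, adjusted p = 0.980), at under 1 CPM in every library. In colon the count was 12 with antibiotics (31.6%, against 11.8%) and 1 on chow (against 5.08%). The antibiotics test holds the shallow library, LD8/16 replicate 1, and its count is given with that library only. In antibiotics colon the mean log2 CPM over the members was 1.25 ± 2.85 at LD8/16 (SD, n = 3). At the other cycles it was 3.33 to 4.41. Oasl1 came first with antibiotics (adjusted p = 0.0604), and DESeq2 called it, against 0.852% of all genes. Oasl1 was at 60.4, 64.0 and 20.8 CPM in antibiotics colon under LD0/24 and at 0, 3.72 and 3.34 CPM under LD8/16, and its means were 15.2, 9.59 and 20.5 CPM at LD12/12, LD16/8 and LD24/0. Thymus had 9 such members (23.7%, against 7.18%), with Ifit1 first (adjusted p = 0.555), at 51.9, 40.4 and 26.4 CPM under LD8/16 and 22.5 to 24.9 CPM under LD24/0. Ileum had 0 (against 7.44%). Jejunum had 3 (7.89%, against 9.34%), and DESeq2 called Gbp2, against 1.24% of all genes, with 20.9, 21.1 and 3.70 CPM under LD0/24 and 2.03 to 10.2 CPM over the other 12 libraries. Cecum had 5 (13.2%, against 8.86%), and DESeq2 called Gbp4, against 2.23% of all genes. Mammary gland had 6 of the 36 members tested (16.7%, against 10.4%), and limma-voom called 4 (Iigp1, Ifi27l2a, Rtp4 and Parp14), against 7.75% of all genes. Ifi27l2a was highest there under LD8/16, at 52.3, 163 and 120 CPM, against 7.26 to 67.9 CPM in the other 12 libraries.

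Inguinal fat had 11 members with an unadjusted p under 0.05 (28.9%, against 12.3% of all genes). Mx1, a dynamin-like GTPase gene, came closest to passing (adjusted p = 0.0623). It was at 2.41, 3.95 and 11.0 CPM under LD0/24, and its means were 2.60 CPM at LD8/16, 0.886 CPM at LD12/12, 1.31 CPM at LD16/8 and 0.727 CPM at LD24/0. The mean log2 CPM of the module in this tissue was 4.65 ± 0.49, 4.38 ± 0.29, 4.20 ± 0.14, 4.15 ± 0.16 and 4.04 ± 0.21 from LD0/24 to LD24/0. DESeq2 called 6 members here (Usp18, Ifit3, Oas1g, Oas2, Mx1 and Mx2), against 1.89% of all genes. The summed macrophage markers of fat were 571 CPM in LD0/24 replicate 3, the library with the highest module mean, and 148 to 416 CPM in the other 14 libraries.

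In spleen 9 members had an unadjusted p under 0.05 (23.7%, against 16.6% of all genes) and DESeq2 called 8 (Ifit2, Oasl2, Bst2, Gbp7, Iigp1, Ifi44, Ifi27l2a and Ifi35), against 10.5% of all genes. Bst2 was at 180, 189 and 178 CPM under LD0/24 and at 112, 63.4 and 57.5 CPM at LD12/12 (adjusted p = 0.0586). Its means at LD8/16, LD16/8 and LD24/0 were 144, 95.2 and 110 CPM. Ifit2 had its highest mean, 43.1 ± 11.5 CPM, at LD12/12. Cell markers also differed among spleens. Summed B cell genes were at 439 and 336 CPM in LD12/12 replicates 2 and 3 and at 672 CPM in LD16/8 replicate 3. In the other 12 spleens they were at 2850 to 4692 CPM. Summed neutrophil genes reached 45324 CPM in LD16/8 replicate 3. The part of these cells in the member values was not tested.

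Across chow tissues, described with no test on 1 joint CPM scale, the module was low in hypothalamus and mammary gland and higher elsewhere. The mean log2 CPM over the 38 members was 4.60 ± 0.33 in jejunum, 4.40 ± 0.62 in colon, 4.36 ± 0.31 in spleen, 4.21 ± 0.23 in liver, 3.89 ± 0.65 in ileum, 3.84 ± 0.33 in inguinal fat, 3.51 ± 1.03 in cecum, 3.11 ± 0.27 in thymus, 0.93 ± 0.31 in hypothalamus and 0.82 ± 1.74 in mammary gland (SD, n = 30 in liver and 15 elsewhere). Neighbours in that order differed by less than their spread, except that thymus, at 2.57 to 3.74, lay above every hypothalamus library, at 0.37 to 1.70. Jejunum held the highest mean of 11 members, liver of 10, cecum of 5, spleen of 4, colon and inguinal fat of 3 each and thymus of 2. The lowest mean was in mammary gland for 19 members and in hypothalamus for 16. Mammary gland libraries had a median of 85.3% mitochondrial counts and 9361 detected genes. The part of this in their low level was not tested. The order depends on the scaling: on unscaled library totals the mean was highest in spleen, at 5.08, against 4.42 in jejunum, 4.34 in colon, 4.29 in inguinal fat and 3.61 in liver, and hypothalamus (1.67) lay above mammary gland (-0.20).

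**Figure D4:**
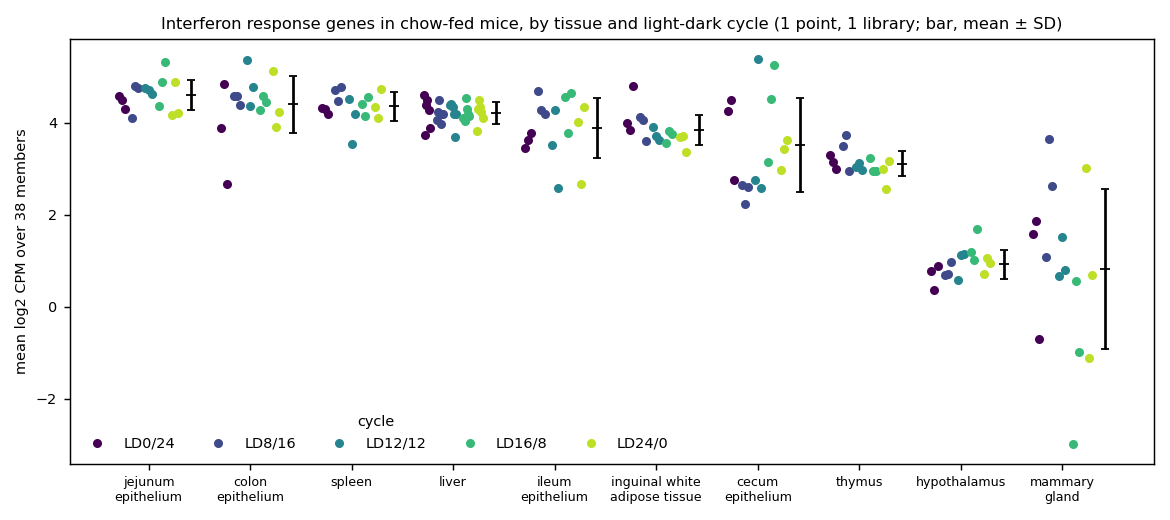
Mean log2 CPM over the 38 members in each chow library, on the joint scale, by tissue and coloured by light cycle, with the tissue mean and SD. Jejunum, colon, spleen and liver average 4.21 to 4.60, cecum spreads from 2.24 to 5.39, and hypothalamus and mammary gland average under 1.

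Single members had their own tissue order. Irf7, the member whose tissue means spread widest among the factors, averaged 537 ± 243 CPM in colon, 184 ± 131 CPM in cecum, 177 ± 85.1 CPM in jejunum, 139 ± 76.9 CPM in ileum, 96.7 ± 25.9 CPM in liver, 42.3 ± 11.8 CPM in spleen, 28.1 ± 12.9 CPM in inguinal fat, 10.2 ± 4.29 CPM in thymus and 2.11 ± 0.60 CPM in hypothalamus. In mammary gland it averaged 102 ± 182 CPM and ran from 0 to 623 CPM. Colon was thus the highest tissue for Irf7, with a range of 33.2 to 868 CPM that overlapped the cecum, jejunum, ileum and liver ranges.

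Jejunum led for several antiviral genes. Isg15 averaged 80.0 ± 46.4 CPM in jejunum and 2.26 ± 0.83 CPM in hypothalamus, and Usp18 averaged 36.4 ± 19.4 and 1.28 ± 0.51 CPM there. Ifit1 averaged 129 ± 77.0 CPM in jejunum and 3.69 ± 1.37 CPM in hypothalamus. Oasl2 and Oasl1 averaged 116 ± 42.6 and 106 ± 53.3 CPM in jejunum. Oasl1 was at 0.145 ± 0.076 CPM in hypothalamus. Zbp1 averaged 49.99 ± 23.6 CPM in jejunum and 0.151 ± 0.128 CPM in hypothalamus.

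Other members peaked elsewhere. In liver, Bst2 averaged 289 ± 67.3 CPM (112 to 442), against 94.6 ± 27.9 CPM (51.1 to 170) in inguinal fat, the next highest tissue by mean log2 CPM. Igtp was at 85.4 ± 15.3 CPM in liver and 80.5 ± 53.9 CPM in jejunum, within their spread. Gbp4 stood out in thymus, where it was at 84.1 to 104 CPM, above every spleen library, the next tissue, at 5.00 to 51.4 CPM. Ifi27l2a averaged 608 ± 316 CPM in inguinal fat and 126 ± 44.0 CPM in spleen. In cecum, Samd9l averaged 186 ± 56.4 CPM, Ifih1 78.5 ± 27.8 CPM and Lgals3bp 124 ± 72.6 CPM, and jejunum was close for Ifih1 (76.4 ± 17.96 CPM) and Lgals3bp (115 ± 48.4 CPM).

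**Figure D5:**
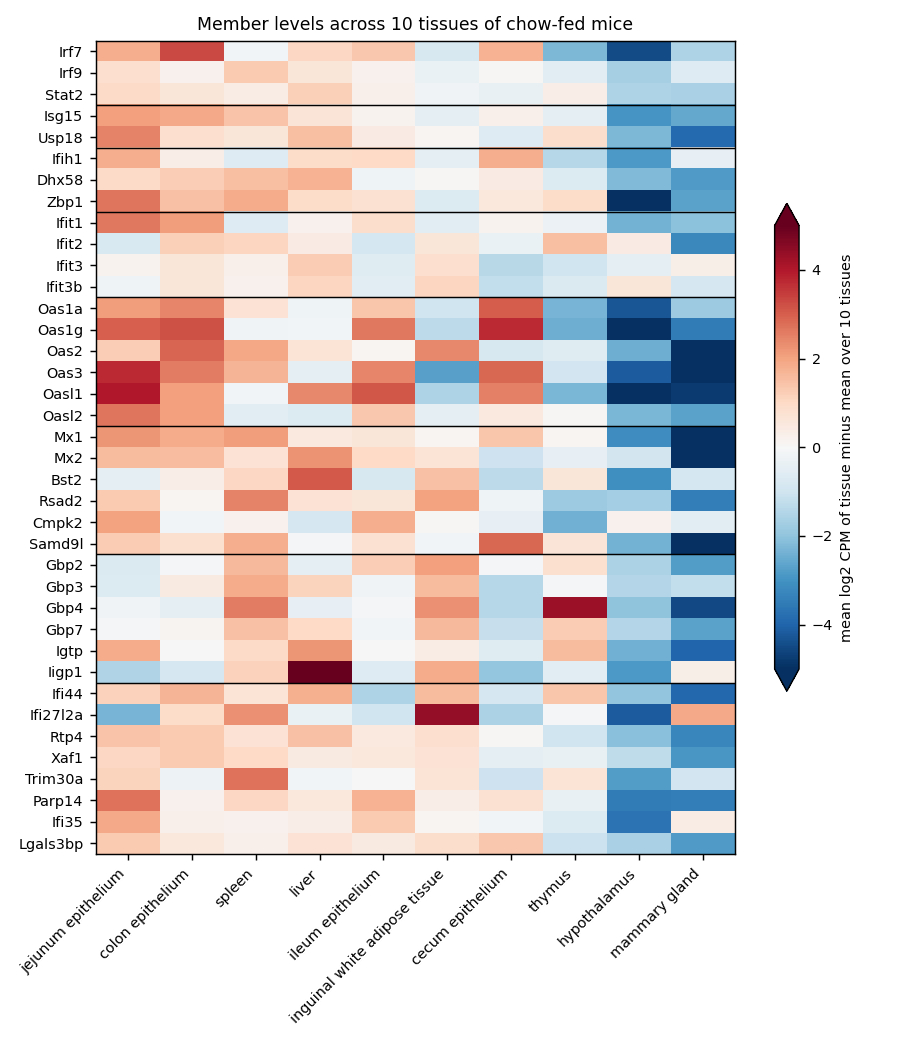
Tissue mean log2 CPM of each member on the joint scale, minus that member's mean over the 10 chow tissues, with members in rows by role. Hypothalamus and mammary gland are below the mean for nearly all members, Gbp4 is high in thymus, Ifi27l2a in inguinal fat, and Bst2 and Iigp1 in liver.

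Cecum libraries differed from each other more than those of any other chow tissue but mammary gland, also within a light cycle. On the cecum's own CPM scale the mean log2 CPM over the members was 4.43, 4.53 and 2.73 in the LD0/24 libraries, 2.59, 2.42 and 2.66 at LD8/16, 2.86, 5.56 and 2.59 at LD12/12, 3.13, 4.58 and 5.23 at LD16/8, and 2.99, 3.53 and 3.64 at LD24/0. In LD12/12 replicate 2 all 38 members were at the highest of their group, and in LD16/8 replicate 4 34 of 38 were. The further interferon-stimulated genes averaged 4.43 in the first of these libraries and 2.88 and 2.53 in its group. B cell markers summed to 579 CPM in LD12/12 replicate 2, and 295 and 19.5 CPM in the rest of its group, but to 7.11 CPM in LD16/8 replicate 4. The summed plasmacytoid markers were 179 and 137 CPM in these 2 libraries and 81.7 to 362 CPM over all 15. The part of these cells in the spread was not tested.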

How the data were processed

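RNA was taken from 10 mouse tissues with TRIzol and made into libraries with a SMARTER mRNA kit, per the labels' protocols. Reads were processed with HISAT2 (2.1.0), SAMtools (1.10) and StringTie (2.2.1) against GRCm39, per the submitters' processing notes. The deposited values are whole-number estimated counts per gene, taken as the authors gave them, with no normalization. The value 4 is in surplus (146169 cells, against 86362 at 3 and 66707 at 5), so dividing by 4 was an alternative. Of 46333 table rows, 2 name no gene and were left out (at most 0.114% of a library). Library totals and the libraries left out stand in the report.

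The members and lists were chosen with earlier results of these data known. All 38 members are accounted for. Every called member is named, and values by library are given for the 8 members with the smallest adjusted p per diet comparison plus Irf7, Stat2, Isg15, Ifit1 and Oas2. Of other lists the 4 genes with the smallest adjusted p are named. Across tissues, the member of each role group with the highest mean and the one with the widest range are named. Members given outside these rules, such as Gbp4 in thymus and those that another tool called, were chosen after their values were seen.

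Counts were tested with edgeR (4.0.16, R 4.3.3) by quasi-likelihood F tests, with TMM scaling, filterByExpr, robust fitting and 1 mean per diet and cycle. P-values were adjusted by Benjamini-Hochberg over all genes tested, with a threshold of 0.05. Differences between tissues came from 1 joint fit of liver, hypothalamus and colon, with a single spread per gene shared by these tissues. A standard error is the log2 fold change divided by the root of its F. CPM are counts per 1000000 TMM-scaled counts, and log2 CPM has a prior count of 2. CPM are not divided by gene length, so levels are compared between samples and not between genes. Alternatives were RLE size factors, no filter, the legacy quasi-likelihood fit, values divided by 4, totals without mitochondrial genes, mitochondrial share as a covariate, a replicate block, limma-voom (limma 3.58.1), DESeq2 (1.42.0), and leaving out or adding libraries. The fits were also run on simulated counts whose spread followed expression level alone, with no replicate effects. Such counts cannot show the effect of unequal spread between tissues or of replicate numbers. Tables were handled in Python 3.11.15 with pandas 2.3.3 and numpy 2.4.6.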

Additional observations from a re-analysis of the deposited data

Results flagged for a closer look

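Single livers stood far from the rest of their diet and cycle 26 times, in 120 checks of 12 measures over 10 groups, and chance alone marks about 1 group in 20. With antibiotics, LD8/16 replicate 3 had 40.5 CPM of Ifit3 (9.96 to 20.9 in the others) and 20.5 CPM of Oasl1 (7.04 to 10.3). LD12/12 replicate 1 had 6.92 CPM of Oasl2 (2.85 to 4.31). LD16/8 replicate 2 had 19.9 CPM of Ifit1 (6.31 to 10.7), 37.3 CPM of Ifit3 (11.9 to 21.4) and 6.28 CPM of Oasl2 (3.19 to 3.79), and LD24/0 replicate 2 had 7.75 CPM of Oas1a (4.33 to 5.30).

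On chow, the 4 livers named here for Stat2 are libraries of high mitochondrial share. LD0/24 replicate 4 had 159 CPM of Stat2 (36.5 to 76.3). LD8/16 replicate 3 had 40.0 CPM of Ifit1 (9.14 to 16.6), 10.8 CPM of Oas2 (1.30 to 3.58) and 121 CPM of Stat2 (33.5 to 45.5). LD12/12 replicate 2 had 44.1 CPM of Ifit1, 93.2 CPM of Irf7, 5.42 CPM of Oas1g, 9.38 CPM of Oas2 and 197 CPM of Stat2. LD24/0 replicate 5 had 20.3 CPM of Ifi27l2a, 90.6 CPM of Irf7, 12.0 CPM of Oas2 and 116 CPM of Stat2. LD0/24 replicate 1, also of high mitochondrial share, had 43.7 CPM of Isg15 (13.8 to 22.0). LD16/8 replicate 6, the chow liver with the highest summed neutrophil markers (577 CPM), had 28.7 CPM of Ifi27l2a, 91.7 CPM of Irf7, 18.4 CPM of Oas1a and 6.66 CPM of Oas1g. LD12/12 replicate 5 was low, with a mean log2 CPM over the members of 3.22 (3.70 to 3.94).

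The diet effect differed between tissues by the joint edgeR test in 24 comparisons of a member, each given as a difference of log2 fold changes. That test takes a single spread per gene over the tissues, so those that involve colon may be overstated. Liver minus colon gave 0.71 for Irf7, 1.19 for Oas3, 0.72 for Bst2, 0.71 for Lgals3bp, -0.95 for Oas1g and -0.85 for Ifi27l2a. Liver minus hypothalamus gave -1.10 for Irf7, -0.96 for Oas1a, -1.23 for Oas1g, -1.31 for Oas2, -1.95 for Oasl1, -1.0005 for Oasl2, -0.90 for Gbp4, -0.89 for Ifi27l2a, -0.90 for Xaf1 and -0.58 for Ifi35. Colon minus hypothalamus gave -1.81 for Irf7, -0.89 for Stat2, -1.82 for Oas2, -1.71 for Oasl1, -1.10 for Oasl2, -1.16 for Bst2, -0.85 for Parp14 and -0.97 for Lgals3bp.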

How the results depend on the processing

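Of the 22 members called in liver 16 passed in all 17 alternatives, as did 1 of 6 in hypothalamus and 0 of 5 in colon, each with 42. Of 836 single values 732 kept direction and side, 103 kept direction only, and Mx2 in liver turned to 0.047 without the 5 chow livers of high mitochondrial share. Where a value moved, the cause was not tested. Members higher in liver numbered 3 with mitochondrial share as covariate and 5 without those livers, and 0 to 1 with a replicate number left out; those lower numbered 17 to 20. In hypothalamus, leaving out libraries gave 1 to 6 higher (6 without chow LD12/12 replicate 3) and 0 to 3 lower (0 without chow LD12/12 replicate 2), and the lower count was 1 with no filter, legacy quasi-likelihood or limma-voom and 4 with the covariate. In colon 1 rose with values divided by 4, 0 to 1 rose and 1 to 8 fell with libraries left out (8 without antibiotics LD8/16 replicate 2 or LD12/12 replicate 1), and DESeq2 gave 1 member for antibiotics cycles (0 to 1 with libraries left out).

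For chow cycles, liver gave 1 without the high mitochondrial libraries. DESeq2 gave 6 in inguinal fat, 1 in jejunum (0 to 1 with replicates left out, 1 without those numbered 3), 1 in cecum and 8 in spleen (0 to 10, with 10 without those numbered 1). Mammary gland gave 2 with no filter, 1 with values divided by 4 and 4 with limma-voom (0 to 2 with replicates left out). Diet effects higher in liver than in colon numbered 8 with limma-voom and 8 without the high mitochondrial livers, an alternative chosen after seeing the data (3 to 6 with replicates left out), and those lower 1 with limma-voom (0 to 3). Liver below hypothalamus gave 4 with limma-voom (4 to 12), and colon below hypothalamus 6 to 10. The mean log2 CPM of the module moved beyond its SD without mitochondrial genes in liver (4.75), hypothalamus (1.46), inguinal fat (4.38), jejunum (5.08), spleen (4.81) and thymus (3.65). It did so on unscaled totals in liver (3.61), hypothalamus (1.67), inguinal fat (4.29), spleen (5.08) and thymus (4.09), and with RLE in hypothalamus (1.36).

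The replicate numbers were not taken as pairs in the main fits, by a rule that every same-numbered pair correlate at over 0.1. A single pair under 0.1 fails that rule, so failing it does not show that the numbers carry no structure. Deviations of same-numbered libraries correlated at -0.48 to 0.25 in liver, -0.10 to 0.54 in hypothalamus and -0.19 to 0.45 in colon. In these tissues 6 of 29, 8 of 15 and 10 of 15 pairs were over 0.1. The medians were -0.039, 0.108 and 0.149, against -0.012, -0.036 and -0.148 for libraries of different numbers. Same-numbered libraries thus had the higher median in hypothalamus and colon but not in liver. The check was made within each tissue only. With the replicate block, 1 member rose and 20 fell in liver, 3 rose and 2 fell in hypothalamus, 0 rose and 6 fell in colon, and 0 passed any cycle test. The joint fit with the block gave 4 higher and 2 lower for liver against colon, 10 lower for liver and 8 lower for colon against hypothalamus. Oas3 and Oasl1 in hypothalamus were called at under 1 CPM, where counting error is a larger share of a value.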

Other observations

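Among antibiotics livers, LD8/16 replicate 3 had the highest mean log2 CPM over the 38 members, at 4.13, with 32 of them at their group's highest value, while its diet and cycle as a whole averaged 3.38 ± 0.41 (SD, n = 6). In hypothalamus the mean log2 CPM over the members was 1.647, 1.93, 1.88, 2.04 and 1.73 with antibiotics and 1.44, 1.56, 1.74, 2.09 and 1.66 on chow, from LD0/24 to LD24/0. LD16/8 was thus the highest cycle and LD0/24 the lowest in both diets, with SDs of 0.085 to 0.28 with antibiotics and 0.16 to 0.35 on chow (n = 3 each), and no test was made of these means.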
